A study of Mus musculus with 12 samples.

Results

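The genes described here are the machinery of autophagy together with markers of lysosome biogenesis: 33 genes fixed by name, of which 32 were read by at least 1 probeset assigned to a single gene, out of 18193 genes so represented. Optn, the remaining gene of the list, is not analysed here. Where several probesets (sets of short probes that together give 1 expression value) named a gene, the one with the highest mean over all arrays stood for it. The others are given mainly where their call differed. Values are log2 expression levels, so that a difference of 1 is a doubling, and levels of different genes were not set against each other.

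The question was how an acute challenge with tunicamycin (TM), an inhibitor of N-linked glycosylation that overloads the endoplasmic reticulum (ER) with misfolded protein, altered these mRNAs in mouse liver, and whether the response differed without ATF6alpha, an ER membrane sensor of the unfolded protein response (UPR). The 4 groups were Atf6a-/- mice given TM, Atf6a-/- mice given vehicle, wild-type mice given TM and wild-type mice given vehicle, with 3 animals and 1 array per animal in each. TM was injected into the peritoneum at 2 mg/kg in 150 mM dextrose, vehicle was the dextrose alone, and livers were taken 8 h later. The animals were of variable age and sex, and the study's methods state a fast of 4 h before they were killed. The Atf6a-/- allele was a germline null present in every cell of the liver, and RNA came from homogenised tissue. In such bulk tissue, fewer cells of a type and less RNA per cell cannot be told apart.

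Autophagy encloses cytoplasm, organelles or aggregates in a double membrane, the autophagosome, which fuses with a lysosome for digestion of the content. The ULK1 kinase complex starts the process, a class III phosphatidylinositol 3-kinase (PI3K) marks the growing membrane with PI3P, WIPI proteins bind that lipid, and a pair of ubiquitin-like conjugation systems attach the Atg8 proteins (the LC3 and GABARAP families) to the membrane. Receptors such as NBR1 tie cargo to the Atg8 proteins. In liver, autophagy supplies nutrients in fasting and turns over organelles and lipid droplets, and transcription factors of the TFEB family, which bind E-box DNA elements, are known to drive many of the lysosomal and autophagy genes.

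Promoter windows from RefSeq (build GRCm38.p6, 250 bases before to 50 after each annotated start) were found for 26 of the 32 members, 31 windows in all, and were searched on both strands for elements bound by stress and lysosomal factors. The 5 windows shown are those of the members with the largest increases (Atg13 and Gabarapl1), of the member with the largest decrease (Atg14), and of the members with the longer E-box or several copies of its core (Atg3 and Lamp1). Each is written in the direction of transcription, with capitals on the E-box core CACGTG or its longer form TCACGTGA.
Atg13, chr2:91710543-91710842, minus strand: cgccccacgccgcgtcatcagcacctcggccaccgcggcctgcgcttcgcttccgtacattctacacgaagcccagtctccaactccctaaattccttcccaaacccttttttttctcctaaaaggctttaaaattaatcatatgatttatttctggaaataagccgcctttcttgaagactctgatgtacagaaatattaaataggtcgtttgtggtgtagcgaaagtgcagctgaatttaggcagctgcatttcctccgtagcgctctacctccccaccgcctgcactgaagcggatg
Gabarapl1, chr6:129532942-129533241, plus strand: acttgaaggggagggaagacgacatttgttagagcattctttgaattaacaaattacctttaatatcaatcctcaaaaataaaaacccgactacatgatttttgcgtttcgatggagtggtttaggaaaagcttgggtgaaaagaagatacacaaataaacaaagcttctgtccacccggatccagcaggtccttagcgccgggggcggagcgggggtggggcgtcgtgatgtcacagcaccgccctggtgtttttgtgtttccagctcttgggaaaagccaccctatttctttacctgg
Atg14, chr14:47568385-47568684, minus strand: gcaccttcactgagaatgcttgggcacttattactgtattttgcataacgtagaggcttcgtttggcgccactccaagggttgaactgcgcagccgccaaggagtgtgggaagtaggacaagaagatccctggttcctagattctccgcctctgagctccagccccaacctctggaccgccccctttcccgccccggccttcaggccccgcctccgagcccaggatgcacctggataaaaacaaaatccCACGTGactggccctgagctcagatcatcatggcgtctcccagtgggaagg
Atg3, chr16:45158579-45158878, plus strand: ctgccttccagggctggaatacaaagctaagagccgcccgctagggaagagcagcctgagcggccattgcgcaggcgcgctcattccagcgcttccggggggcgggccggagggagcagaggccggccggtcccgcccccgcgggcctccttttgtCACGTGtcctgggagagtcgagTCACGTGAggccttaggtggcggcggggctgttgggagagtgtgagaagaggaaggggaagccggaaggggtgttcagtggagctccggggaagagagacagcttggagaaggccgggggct
Lamp1, chr8:13158911-13159210, plus strand: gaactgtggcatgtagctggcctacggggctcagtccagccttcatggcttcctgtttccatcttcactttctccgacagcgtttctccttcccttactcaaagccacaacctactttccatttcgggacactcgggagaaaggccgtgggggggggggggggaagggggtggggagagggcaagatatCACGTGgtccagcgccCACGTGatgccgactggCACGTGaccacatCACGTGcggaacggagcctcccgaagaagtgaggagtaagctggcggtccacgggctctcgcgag
The E-box core CACGTG lay in 5 of the 31 member windows, those of Atg14, Atg3, Atg5, Atg7 and Lamp1, and in 7.15% of all 32851 windows of this length, and the Lamp1 window held 4 copies. The longer TCACGTGA, which contains the core, lay in the Atg3 window alone and in 0.974% of all windows. The element TGATGNAA of C/EBP-ATF type, which ATF4 and CHOP can bind, was in none of the member windows and in 3.97% of all. The unfolded protein response element TGACGTGG was in none and in 0.676% of all. The ER stress response element (CCAAT, then CCACG after 9 further bases) was in none and in 0.119% of all. The cAMP response element TGACGTCA was in the Atg5 window and 1.79% of all, and the CCAAT box was in 9 of 31 and 37.4% of all. These matches are letters in a short window and are not evidence of binding.

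The livers carried a strong stress response in both genotypes. The array reads Atf6 itself with a probeset whose place relative to the deleted sequence was not given: its level was 10.19, 9.76 and 10.5 in Atf6a-/- TM livers, 7.03, 7.15 and 7.79 in Atf6a-/- vehicle livers, 10.75, 11.16 and 11.01 in wild-type TM livers, and 8.74, 9.47 and 8.9 in wild-type vehicle livers. Both Atf6a-/- groups therefore lay below the wild-type group of the same treatment without overlap, but the transcript was still measured in the Atf6a-/- livers and its genotype difference did not pass the test under TM (−0.82, limma adjusted p = 0.0905) or vehicle (−1.71, adjusted p = 0.184). Ddit3, which encodes CHOP, rose by 6.13 in Atf6a-/- and 6.79 in wild-type livers, and Pdia4, an ER oxidoreductase, by 3.14 in wild-type livers, with 0.24 in Atf6a-/- livers. Hepatocyte markers were high in every group (mean level 13.15 to 13.28 in Atf6a-/- TM, 13.07 to 13.14 in Atf6a-/- vehicle, 13.09 to 13.2 in wild-type TM and 12.99 to 13.08 in wild-type vehicle livers). Of these 7 markers, 1, Tat, was higher with TM in each genotype by the test used below (14.3%). Over all genes the share was 13.1% in Atf6a-/- and 8.92% in wild-type livers. Array medians lay between 4.98 and 5.11, every member's mean lay above the highest of them, and 1 array of each group carried Y-linked signal.

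Most members of the autophagy machinery did not pass the test, and more of those that did were higher than lower with TM. A gene was called where limma's p, adjusted over all 45037 probesets, was under 0.05 and the difference was over 1.5-fold. With TM in Atf6a-/- livers, 7 of 32 members rose (21.9%, against 13.1% of all genes) and 2 fell (6.25%, against 8.21% of all genes). With TM in wild-type livers, 4 of 32 rose (12.5%, against 8.92% of all genes) and 1 fell (3.12%, against 6.9% of all genes). The median response of the members was 0.02 in Atf6a-/- livers and −0.0311 in wild-type livers, beside −0.104 in Atf6a-/- and −0.06 in wild-type livers over all genes.

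Atg13, Wipi2 and Gabarapl1 rose in both genotypes, and 21 members were called in no comparison. The shares of all genes with the same patterns are not given here. Rb1cc1, Ambra1, Atg12 and Nbr1 rose, and Atg7 and Atg4a fell, past the threshold in Atf6a-/- livers and not in wild-type livers. Wipi1 rose and Atg14 fell past it in wild-type livers and not in Atf6a-/- livers. None of these differences between the genotypes' responses passed its own test, which is given below.

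**Figure D1:**
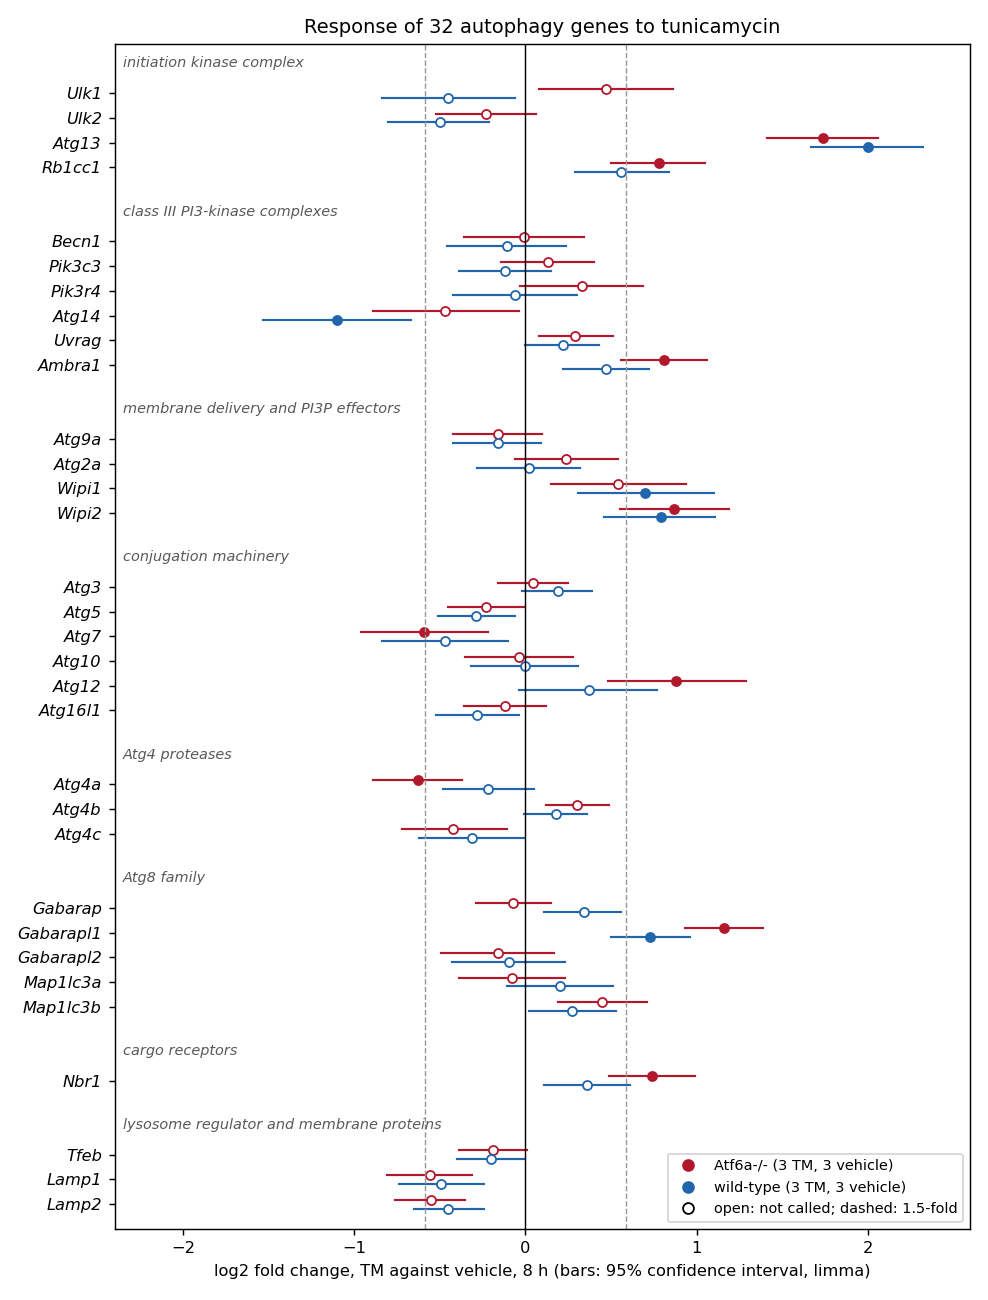
Response of each of the 32 members to TM, as the log2 difference between TM and vehicle livers with its 95% confidence interval from limma (3 animals per group), with the Atf6a-/- response drawn above the wild-type response. Filled points were called, and dashed lines mark 1.5-fold: Atg13 stands farthest to the right at 1.74 in Atf6a-/- and 2 in wild-type livers, and Atg14 farthest to the left at −1.1 in wild-type livers.

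Of the 4 members of the initiation kinase complex, 2 rose in Atf6a-/- livers and 1 in wild-type livers. Over all genes, 13.1% rose and 8.21% fell in Atf6a-/- livers, and 8.92% rose and 6.9% fell in wild-type livers. This group and those below are too small for their counts to be set against these shares. Atg13, the regulatory subunit that links the ULK kinases to their scaffold, had the largest response of all members. Its level was 9.95, 9.91 and 10.06 in Atf6a-/- TM livers, against 8.07, 8.28 and 8.36 in Atf6a-/- vehicle livers. In wild-type livers it was 9.95, 9.88 and 9.93 with TM, against 7.57, 8.29 and 7.91 with vehicle. The TM and vehicle animals did not overlap in either genotype, and the TM animals of both genotypes sat within a narrow band. The increase was 1.74 ± 0.15 (SE) in Atf6a-/- livers, or 3.33-fold (adjusted p = 4.87e-06), and 2 ± 0.15 in wild-type livers, or 3.99-fold (adjusted p = 2.39e-06). A second Atg13 probeset gave 2.23 and 2.39 in Atf6a-/- and wild-type livers. The remaining one, at −0.0097 in Atf6a-/- livers and 0.22 in wild-type livers, was not called. Its mean level of 4.88 lay below every array median.

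Rb1cc1 encodes FIP200, the scaffold of the same complex. Its level was 9.55, 9.63 and 9.9 in Atf6a-/- TM livers, against 8.91, 8.85 and 9 in Atf6a-/- vehicle livers, and 9.52, 9.58 and 9.55 in wild-type TM livers, against 8.72, 9.21 and 9.04 in wild-type vehicle livers. All TM animals lay above all vehicle animals. Rb1cc1 rose by 0.78 ± 0.13 in Atf6a-/- livers (1.71-fold, adjusted p = 0.00061), and the difference in wild-type livers was 0.56 ± 0.13, which passed the p threshold (0.0078) at 1.48-fold and was called without the second (0.67) or the third (0.59) wild-type vehicle animal. A second probeset, at a mean level of 5.4, was called higher in both genotypes, by 1.14 in Atf6a-/- and 1.03 in wild-type livers. The remaining one, at a mean level of 3.15, was not called.

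The kinases themselves were not called by their brightest probesets. Ulk1 was at 10.07, 9.61 and 9.6 in Atf6a-/- TM livers, against 9.16, 9.47 and 9.23 in Atf6a-/- vehicle livers, and at 8.91, 9.28 and 9.15 in wild-type TM livers, against 9.51, 9.25 and 9.92 in wild-type vehicle livers. The Atf6a-/- TM animals were the highest within their genotype without overlap, whereas the wild-type TM animals overlapped their vehicle group and lay mostly below it. The differences, 0.47 ± 0.18 in Atf6a-/- livers (adjusted p = 0.0694) and −0.45 ± 0.18 in wild-type livers (adjusted p = 0.114), did not pass the test. A second Ulk1 probeset was called higher in Atf6a-/- livers (0.7, adjusted p = 0.0327) and was at −0.2 in wild-type livers. Without the second wild-type vehicle animal, the wild-type difference of the brightest probeset was called, at −0.61 (adjusted p = 0.034).

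Ulk2, the paralogous kinase, was at 8.87, 8.64 and 8.75 in Atf6a-/- TM livers, against 8.82, 8.82 and 9.3 in Atf6a-/- vehicle livers, and at 8.77, 8.71 and 8.89 in wild-type TM livers, against 9.16, 9.44 and 9.27 in wild-type vehicle livers. Only the wild-type groups were free of overlap. The difference was −0.23 in Atf6a-/- livers (adjusted p = 0.227) and −0.5 in wild-type livers (1.42-fold, adjusted p = 0.0203), so neither was called, although 2 of the 4 Ulk2 probesets were called lower in wild-type livers and 1 in Atf6a-/- livers.

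**Figure D2:**
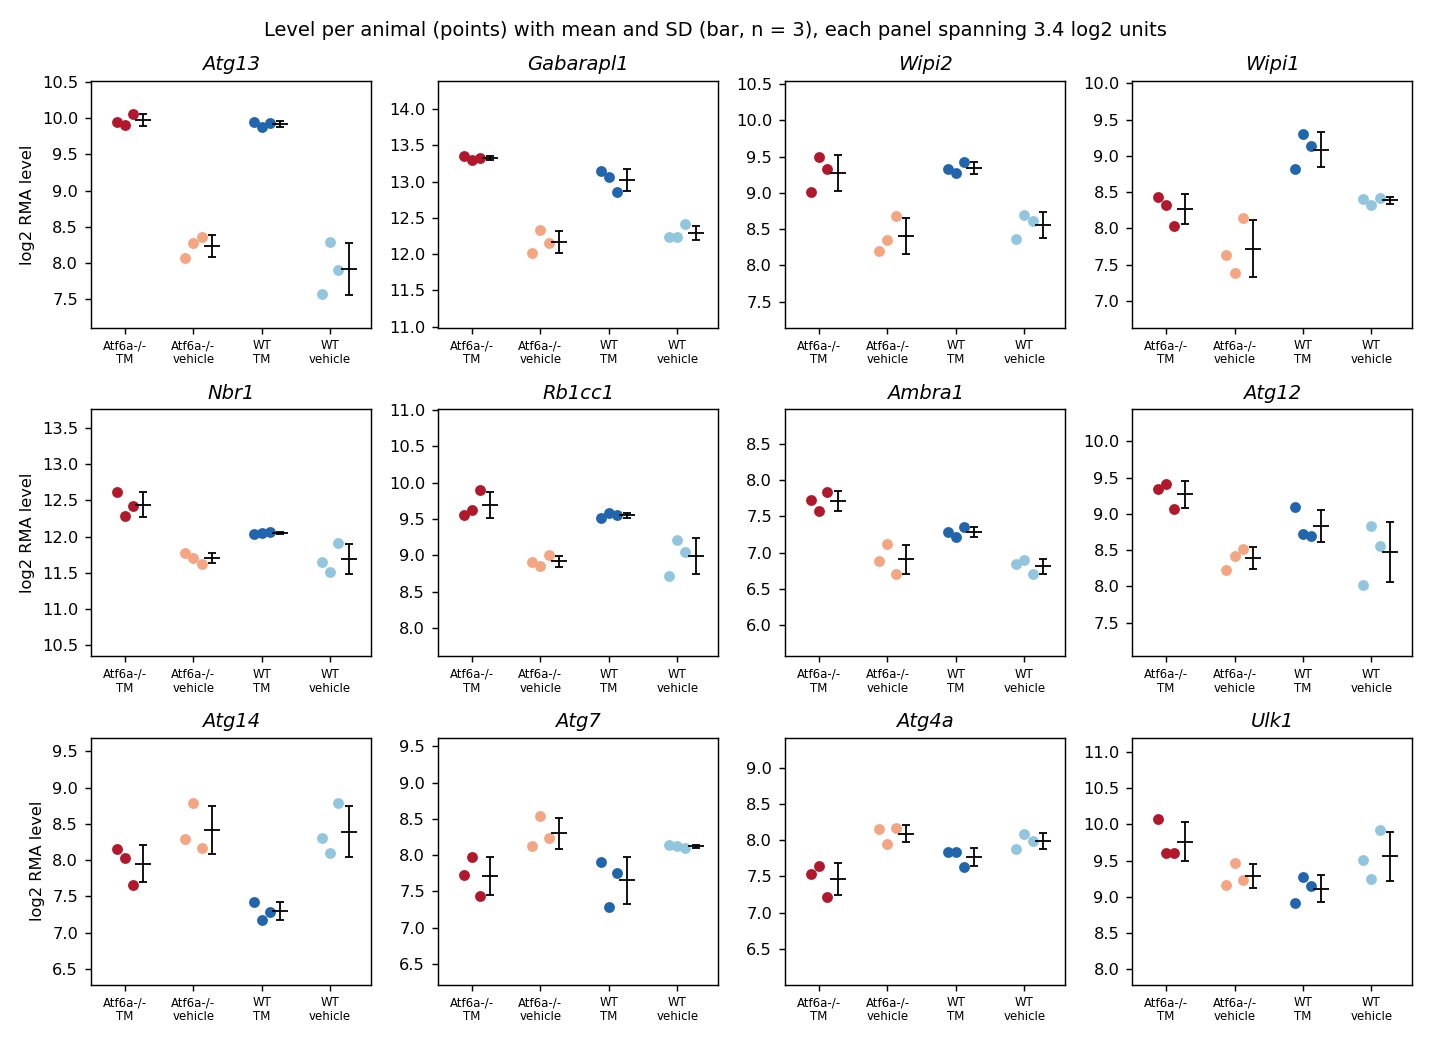
Log2 expression level of 12 members in each animal, in the order Atf6a-/- TM, Atf6a-/- vehicle, wild-type TM, wild-type vehicle, with points for animals and bars for the mean ± SD (n = 3). Each panel spans the same number of log2 units, so slopes can be compared between genes but levels cannot: Atg13 and Gabarapl1 step up in both genotypes, while Ulk1 is at 9.76 ± 0.27 in Atf6a-/- TM and 9.11 ± 0.19 in wild-type TM livers.

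Among the 6 members of the class III PI3K complexes, Ambra1 rose in Atf6a-/- livers and Atg14 fell in wild-type livers. Atg14, the subunit that directs the lipid kinase to sites of autophagosome formation, was at 8.15, 8.03 and 7.66 in Atf6a-/- TM livers, against 8.29, 8.79 and 8.17 in Atf6a-/- vehicle livers. It was at 7.42, 7.18 and 7.29 in wild-type TM livers, against 8.3, 8.1 and 8.78 in wild-type vehicle livers. The wild-type TM animals were the lowest of all 12 and overlapped no other group. Atg14 fell by 1.1 ± 0.2 in wild-type livers (2.14-fold, adjusted p = 0.00172), and the difference in Atf6a-/- livers was −0.47 ± 0.2 (adjusted p = 0.0992), which was called after a further quantile normalization (−0.65, adjusted p = 0.0288).

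Ambra1, a regulator that binds the Beclin 1 complex, was at 7.73, 7.57 and 7.84 in Atf6a-/- TM livers, against 6.89, 7.12 and 6.71 in Atf6a-/- vehicle livers. It was at 7.29, 7.22 and 7.35 in wild-type TM livers, against 6.84, 6.9 and 6.7 in wild-type vehicle livers. TM animals lay above vehicle animals in both genotypes, and the Atf6a-/- TM animals lay above the wild-type TM animals. Ambra1 rose by 0.81 ± 0.11 in Atf6a-/- livers (1.75-fold, adjusted p = 0.000211), and the wild-type difference was 0.47 ± 0.11 (1.39-fold, adjusted p = 0.0122). Its other probesets were not called, and their mean levels, 4.49 and 3.93, lay below the lowest array median (4.98).

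The remaining PI3K members were not called. The catalytic subunit Pik3c3 (VPS34) was at 0.13 in Atf6a-/- and −0.12 in wild-type livers, and its partner Pik3r4 at 0.33 in Atf6a-/- livers and −0.058 in wild-type livers. Uvrag, the subunit of the endosomal complex, was at 0.29 in Atf6a-/- livers (adjusted p = 0.0421, under 1.5-fold) and 0.22 in wild-type livers. Becn1, the Beclin 1 gene, showed the smallest difference of the group in Atf6a-/- livers, at −0.007 with a 95% interval of −0.36 to 0.34, and −0.11 in wild-type livers with an interval of −0.46 to 0.24. For Becn1 both intervals lie within 1.5-fold.

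Of the 4 members that deliver membrane or read PI3P, Wipi2 rose in both genotypes and Wipi1 in wild-type livers. Wipi2, which recruits the conjugation machinery to PI3P, was at 9.01, 9.49 and 9.33 in Atf6a-/- TM livers, against 8.2, 8.35 and 8.68 in Atf6a-/- vehicle livers. It was at 9.33, 9.27 and 9.43 in wild-type TM livers, against 8.36, 8.7 and 8.61 in wild-type vehicle livers. No TM animal overlapped a vehicle animal. The increase was 0.87 ± 0.15 (1.82-fold, adjusted p = 0.000828) in Atf6a-/- livers and 0.79 ± 0.15 (1.72-fold, adjusted p = 0.00244) in wild-type livers, and 2 of its 3 probesets were called in both.

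Wipi1, the sister PI3P-binding protein, was the member called lower in Atf6a-/- TM than in wild-type TM livers. Its level was 8.43, 8.33 and 8.03 in Atf6a-/- TM livers, against 7.63, 7.39 and 8.15 in Atf6a-/- vehicle livers. In wild-type livers it was 8.82, 9.3 and 9.14 with TM, against 8.41, 8.33 and 8.42 with vehicle. The wild-type TM animals lay above every other animal, whereas the Atf6a-/- TM and vehicle animals overlapped. Wipi1 rose by 0.7 ± 0.18 in wild-type livers (1.63-fold, adjusted p = 0.0168), and the Atf6a-/- difference was 0.54 ± 0.18 (1.46-fold, adjusted p = 0.043). The 2 genotypes differed under TM by −0.82 ± 0.18 (Atf6a-/- minus wild-type), or 1.77-fold lower in Atf6a-/- livers (adjusted p = 0.0231), and by −0.66 under vehicle, which did not pass (adjusted p = 1), with values from −0.59 to 0.049 at its other probesets.

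The array held 6 Wipi1 probesets, and all 6 were negative in the comparison of Atf6a-/- TM with wild-type TM livers, by 0.32 to 0.91 in size, with 3 called. With TM, 1 of the 6 was called higher in Atf6a-/- livers and 4 in wild-type livers. All 6 were positive in wild-type livers, but the second brightest was negative in Atf6a-/- livers, at −0.23 and not called. Its level there was 7.01, 7.11 and 7.18 with TM, against 7.32, 7.37 and 7.29 with vehicle, without overlap. The call rested on single animals at the brightest probeset: without the second wild-type TM animal the genotype difference was −0.72 (adjusted p = 0.118), without the third it was −0.79 (adjusted p = 0.0859), and without the third Atf6a-/- TM animal it was −0.71 (adjusted p = 0.0916). The wild-type response likewise lost its call without the second wild-type TM animal (0.6, adjusted p = 0.0772) or the third (0.67, adjusted p = 0.058), and the Atf6a-/- response gained one without the third Atf6a-/- vehicle animal (0.76, adjusted p = 0.00439) or the third Atf6a-/- TM animal (0.66, adjusted p = 0.0346). Atg9a, the membrane protein of the vesicles that seed autophagosomes, and Atg2a, a lipid-transfer protein, were not called, at −0.16 and 0.24 in Atf6a-/- livers and −0.16 and 0.023 in wild-type livers.

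**Figure D3:**
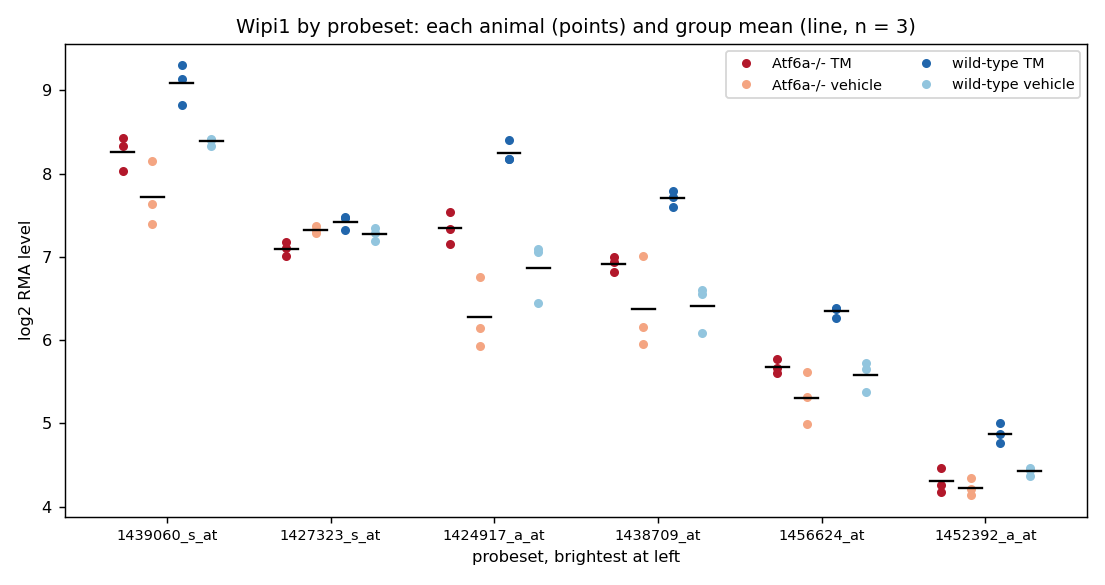
Log2 level of the 6 Wipi1 probesets in the 4 groups, in the order Atf6a-/- TM, Atf6a-/- vehicle, wild-type TM, wild-type vehicle. Points are animals and short lines are group means (n = 3). At each probeset the Atf6a-/- TM mean is below the wild-type TM mean, with 8.26 against 9.09 at the brightest. The size of the TM response varies between probesets, and in Atf6a-/- livers its sign does too.

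Of the 6 members of the conjugation machinery, Atg12 rose and Atg7 fell in Atf6a-/- livers, and none was called in wild-type livers. Atg12, the ubiquitin-like protein that is joined to ATG5, was at 9.34, 9.41 and 9.06 in Atf6a-/- TM livers, against 8.22, 8.42 and 8.52 in Atf6a-/- vehicle livers, and at 9.09, 8.72 and 8.69 in wild-type TM livers, against 8.02, 8.83 and 8.56 in wild-type vehicle livers. Only the Atf6a-/- groups did not overlap. Atg12 rose by 0.88 ± 0.19 in Atf6a-/- livers (1.84-fold, adjusted p = 0.00365), with 2 of its 3 probesets called, and the wild-type difference was 0.37 ± 0.19 (adjusted p = 0.228). The uncalled Atg12 probeset had a mean level of 3.13, below every array median.

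Atg7, the E1-like enzyme that activates both conjugation systems, was at 7.72, 7.97 and 7.44 in Atf6a-/- TM livers, against 8.13, 8.54 and 8.23 in Atf6a-/- vehicle livers. It was at 7.91, 7.29 and 7.76 in wild-type TM livers, against 8.14, 8.13 and 8.1 in wild-type vehicle livers. TM animals were lower than vehicle animals in both genotypes. Atg7 fell by 0.59 ± 0.17 in Atf6a-/- livers (1.51-fold, adjusted p = 0.0211), and the wild-type difference was −0.47 ± 0.17 (adjusted p = 0.0806). The Atf6a-/- call was held by 1 of 4 probesets. The next probesets by level were lower there too, at −0.47 (adjusted p = 0.00386) and −0.39 (adjusted p = 0.00617), under 1.5-fold. The last was at −0.086, with a mean level of 4.01. The call was lost without the second Atf6a-/- vehicle animal (−0.47, adjusted p = 0.0933) or the third Atf6a-/- TM animal (−0.46, adjusted p = 0.0918). The wild-type difference was called, at −0.6, without the first wild-type TM animal (adjusted p = 0.0465). The E2-like enzymes Atg3 and Atg10 were at 0.047 and −0.036 in Atf6a-/- livers and 0.19 and −0.0039 in wild-type livers. Atg5 was at −0.23 in Atf6a-/- livers and −0.29 in wild-type livers, and Atg16l1, which places the conjugate on the membrane, at −0.12 in Atf6a-/- livers and −0.28 in wild-type livers.

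The 3 Atg4 members are proteases that trim and release Atg8 proteins, and Atg4a fell in Atf6a-/- livers. It was at 7.53, 7.64 and 7.21 in Atf6a-/- TM livers, against 8.15, 7.95 and 8.16 in Atf6a-/- vehicle livers, and at 7.84, 7.83 and 7.63 in wild-type TM livers, against 7.87, 8.09 and 7.99 in wild-type vehicle livers. The Atf6a-/- groups lay well apart and the wild-type groups were separated by a small gap. Atg4a fell by 0.63 ± 0.12 in Atf6a-/- livers (1.55-fold, adjusted p = 0.00193) at 1 of its 2 probesets, and the wild-type difference was −0.22 ± 0.12 (adjusted p = 0.278). The other Atg4a probeset, at −0.26 in Atf6a-/- livers, had a mean level of 4.89, below every array median. Without the third Atf6a-/- TM animal the Atg4a difference was −0.5 (adjusted p = 0.00788), under 1.5-fold. Atg4b was at 0.3 in Atf6a-/- livers (adjusted p = 0.0172) and 0.18 in wild-type livers, both under 1.5-fold. The other Atg4b probesets pointed the other way, and none was called. One, at a mean level of 7.81, was at −0.021 in Atf6a-/- and −0.29 in wild-type livers. The dimmer one, at 4.71, was at −0.45 in Atf6a-/- (limma adjusted p = 0.0113) and −0.095 in wild-type livers. Atg4c was at −0.42 in Atf6a-/- livers (adjusted p = 0.0418) and −0.31 in wild-type livers, also under 1.5-fold.

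In the Atg8 family, the proteins that are conjugated to the autophagosome membrane, Gabarapl1 rose and the other 4 members were not called. Gabarapl1 was at 13.36, 13.3 and 13.32 in Atf6a-/- TM livers, against 12.02, 12.33 and 12.16 in Atf6a-/- vehicle livers. It was at 13.15, 13.06 and 12.86 in wild-type TM livers, against 12.24, 12.24 and 12.41 in wild-type vehicle livers. Neither pair of groups overlapped, and the 3 Atf6a-/- TM animals were the highest of all. The increase was 1.16 ± 0.11 in Atf6a-/- livers (2.23-fold, adjusted p = 7.7e-06) and 0.73 ± 0.11 in wild-type livers (1.66-fold, adjusted p = 0.000397), and its second probeset, at 1.21 in Atf6a-/- livers and 0.76 in wild-type livers, was called in both.

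Gabarap itself was at 12.3, 12.49 and 12.5 in Atf6a-/- TM livers, against 12.52, 12.44 and 12.53 in Atf6a-/- vehicle livers, and at 12.6, 12.85 and 12.55 in wild-type TM livers, against 12.26, 12.43 and 12.3 in wild-type vehicle livers. The wild-type groups did not overlap, but the difference was small: −0.071 in Atf6a-/- livers and 0.34 in wild-type livers (adjusted p = 0.0372), below 1.5-fold. Map1lc3a was at 11.47, 11.31 and 10.93 in Atf6a-/- TM livers, against 11.2, 11.33 and 11.41 in Atf6a-/- vehicle livers, and at 11.28, 11.26 and 11.07 in wild-type TM livers, against 10.93, 11.23 and 10.87 in wild-type vehicle livers. Map1lc3a overlapped between TM and vehicle in both genotypes, with differences of −0.076 in Atf6a-/- and 0.2 in wild-type livers. Map1lc3b, which encodes the LC3B protein used as an autophagosome marker, was at 0.45 in Atf6a-/- livers (adjusted p = 0.0135, under 1.5-fold) and 0.27 in wild-type livers, and Gabarapl2 at −0.16 in Atf6a-/- livers and −0.098 in wild-type livers.

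Nbr1, a receptor for ubiquitinated cargo, was the only member of its kind measured. It was at 12.62, 12.28 and 12.43 in Atf6a-/- TM livers, against 11.77, 11.71 and 11.63 in Atf6a-/- vehicle livers, and at 12.04, 12.05 and 12.07 in wild-type TM livers, against 11.65, 11.51 and 11.91 in wild-type vehicle livers. TM animals lay above vehicle animals in both genotypes, and the Atf6a-/- TM animals were the highest. Nbr1 rose by 0.74 ± 0.11 in Atf6a-/- livers (1.67-fold, adjusted p = 0.000396), with both probesets called there, and the wild-type difference of 0.36 ± 0.11 passed the p threshold (0.045) at 1.29-fold.

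The 3 lysosomal members were not called by their brightest probesets, and all 3 had lower means with TM. Tfeb, the gene of the lysosomal transcription factor, was at 7.17, 7.21 and 7.37 in Atf6a-/- TM livers, against 7.48, 7.42 and 7.43 in Atf6a-/- vehicle livers, and at 7.2, 7.15 and 7.05 in wild-type TM livers, against 7.46, 7.3 and 7.24 in wild-type vehicle livers. The groups did not overlap in either genotype, yet the gaps were narrow: −0.19 (95% interval −0.39 to 0.01, adjusted p = 0.144) in Atf6a-/- livers and −0.2 (adjusted p = 0.174) in wild-type livers. Lamp1, a major glycoprotein of the lysosomal membrane, was at 12.18, 12.24 and 11.88 in Atf6a-/- TM livers, against 12.6, 12.68 and 12.7 in Atf6a-/- vehicle livers, and at 12.44, 12.17 and 12.09 in wild-type TM livers, against 12.69, 12.71 and 12.75 in wild-type vehicle livers. No TM animal reached a vehicle animal, and the differences of −0.56 in Atf6a-/- livers (adjusted p = 0.00279) and −0.49 in wild-type livers (adjusted p = 0.0096) stayed under 1.5-fold.

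Lamp2, whose product also serves chaperone-mediated autophagy, was at 12.1, 12.16 and 12.02 in Atf6a-/- TM livers, against 12.61, 12.65 and 12.69 in Atf6a-/- vehicle livers, and at 12.28, 12.16 and 12.4 in wild-type TM livers, against 12.71, 12.61 and 12.85 in wild-type vehicle livers. The groups were fully separated, with differences of −0.55 in Atf6a-/- livers (adjusted p = 0.000811) and −0.45 in wild-type livers (adjusted p = 0.00518), again under 1.5-fold. Of the 4 Lamp2 probesets, 3 were called lower in Atf6a-/- livers, down to −1.08, and 1 in wild-type livers. Lamp1 was called lower in Atf6a-/- livers (−0.63 without the second Atf6a-/- TM animal) or in wild-type livers (−0.59 without the first wild-type TM animal) when single animals were left out. Over the members with several probesets, 11 had a probeset whose call differed from that of the brightest, and in none of them were the calls in opposite directions.

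The genotypes were then compared directly, in comparisons that share arrays with those above. Between Atf6a-/- TM and wild-type TM livers, no member was higher (against 2.89% of all genes) and 1, Wipi1, was lower (against 1.53% of all genes). Between Atf6a-/- vehicle and wild-type vehicle livers no member was called in either direction, with 0 percent of all genes called higher and 0 percent lower, and 2 members, Wipi1 and Ulk2, had an unadjusted p under 0.05 in limma, beside 3.88% of all genes. In all, 8 of 32 members did not overlap between the TM groups, beside 23.6% of all genes. Ulk1 and Atg14 had higher means in Atf6a-/- TM livers, each at 0.65 and 1.57-fold, with adjusted p of 0.068 and 0.0969. The Ulk1 difference, again 0.65, was called without the second (adjusted p = 0.0394) or the third (adjusted p = 0.0383) wild-type vehicle animal. Those animals are not in this comparison, so leaving them out changed only the shared estimate of spread and the adjustment. Ambra1 at 0.43 (adjusted p = 0.058), Nbr1 at 0.39 (adjusted p = 0.0864) and Gabarapl1 at 0.3 (adjusted p = 0.168) were also not called.

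The difference between the 2 responses (the Atf6a-/- response minus the wild-type response) was called for no member, against 1.06% of all genes higher and 0.748% lower, and 6 of 32 members had an unadjusted p under 0.05, beside 14.3% of all genes. The lowest p belonged to Ulk1, at 0.92 with a 95% interval of 0.37 to 1.47 (unadjusted p = 0.00334, adjusted p = 0.126), and its TM differences had opposite signs in the 2 genotypes. Atg14 followed in size at 0.63 (adjusted p = 0.42), Atg12 stood at 0.52 (adjusted p = 0.516), Gabarapl1 at 0.43 (adjusted p = 0.259), and Gabarap and Atg4a each at −0.41 (adjusted p = 0.266 and 0.38). Atg13, which responded most in both genotypes, differed by −0.26 (95% interval −0.72 to 0.2, adjusted p = 0.733), and Wipi1 by −0.16 (95% interval −0.72 to 0.4, adjusted p = 0.886). The other 5 Wipi1 probesets gave −0.32 to −0.74, none called, the lowest unadjusted p being 0.0101 (adjusted p = 0.223).

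Genes outside the 32 gave a wider view of the pathway. Of 19 other core autophagy genes, 7 rose and 3 fell with TM in Atf6a-/- livers (36.8% and 15.8%, against 13.1% and 8.21% of all genes), and 5 rose and 2 fell in wild-type livers (26.3% and 10.5%, against 8.92% and 6.9% of all genes). Epg5, a tether for fusion of autophagosomes with lysosomes, rose by 2.14 in Atf6a-/- livers (adjusted p = 2.98e-06) and by 1.75 in wild-type livers. Nrbf2, a subunit of the ATG14-containing PI3K complex, rose by 1.66 in Atf6a-/- livers and by 1.04 in wild-type livers. Snap29, a SNARE of the same fusion step, fell by 0.99 in Atf6a-/- livers and by 0.76 in wild-type livers. Tmem41b, an ER lipid scramblase needed for autophagosome formation, rose by 1.48 in wild-type livers (adjusted p = 9.44e-05) and was at −0.2 in Atf6a-/- livers (adjusted p = 0.441), and the difference of the responses was called, at −1.68 (adjusted p = 0.00725).

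Of 16 other cargo receptors, 3 rose and 3 fell in Atf6a-/- livers (18.8% each, against 13.1% and 8.21% of all genes), and 3 rose and 1 fell in wild-type livers (18.8% and 6.25%, against 8.92% and 6.9%). Sqstm1 (p62), the receptor most akin to Nbr1, rose by 1.51 (adjusted p = 2.03e-06) in Atf6a-/- and 1.26 (adjusted p = 9.69e-06) in wild-type livers. Stbd1, which binds glycogen, rose by 2.13 in Atf6a-/- livers and by 1.53 in wild-type livers. Fundc1, a receptor on mitochondria, rose by 1.75 in Atf6a-/- livers and by 1.19 in wild-type livers. The ER-phagy receptor Retreg3 fell by 0.85 in Atf6a-/- livers (adjusted p = 4.05e-05) and was at −0.5 in wild-type livers, under 1.5-fold.

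Of 27 upstream regulators, 7 rose and 3 fell in Atf6a-/- livers (25.9% and 11.1%, against 13.1% and 8.21% of all genes), and 6 rose and 4 fell in wild-type livers (22.2% and 14.8%, against 8.92% and 6.9%). Mitf, a transcription factor of the same family as Tfeb, was at 7.78, 7.8 and 7.8 in Atf6a-/- TM livers, against 6.64, 6.53 and 6.47 in Atf6a-/- vehicle livers, and at 8.13, 8 and 7.93 in wild-type TM livers, against 6.17, 6.42 and 6.14 in wild-type vehicle livers. Every TM animal thus lay above every vehicle animal, and Mitf rose by 1.25 in Atf6a-/- and 1.77 in wild-type livers, where Tfeb was not called. Ddit4 and Sesn2, stress-induced inhibitors of the mTORC1 kinase, rose by 3.8 and 1.74 in Atf6a-/- livers and by 3.83 and 0.77 in wild-type livers. Sesn2 was higher in Atf6a-/- TM than in wild-type TM livers by 1.08, and its responses differed by 0.96 (adjusted p = 0.0325). Mlst8, a subunit of mTORC1 itself, rose by 1.08 in Atf6a-/- livers and was at 0.55 in wild-type livers.

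**Figure D4:**
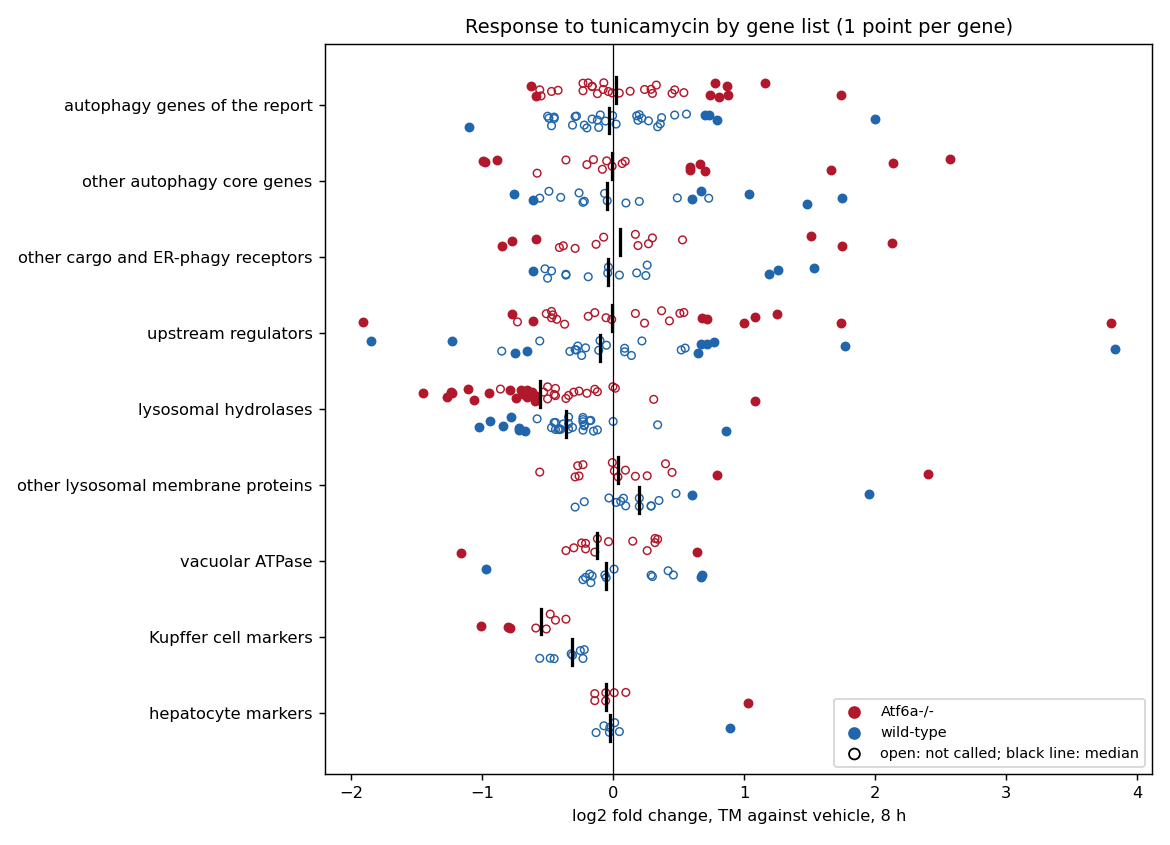
TM response of every measured gene in 9 lists, as the log2 difference between TM and vehicle livers. Within each list Atf6a-/- is drawn above wild-type, with a point per gene and a black line at the median. The 34 hydrolases lie mostly below 0, with medians of −0.56 in Atf6a-/- and −0.36 in wild-type livers, while the 32 members are centred near 0 with a tail of increases.

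Lysosomal hydrolases, the digestive enzymes downstream of autophagy, mostly had lower levels with TM. Of the 34 measured from the list used here, 16 fell and 1 rose in Atf6a-/- livers (47.1% lower, against 8.21% of all genes). In wild-type livers 7 fell and 1 rose (20.6% lower, against 6.9% of all genes). The median difference was −0.56 in Atf6a-/- and −0.36 in wild-type livers, and 31 of the 34 were negative in each. In Atf6a-/- livers, Gusb (beta-glucuronidase) fell by 1.27, Fuca1 (alpha-fucosidase) by 1.06 and Manba (beta-mannosidase) by 1.11. In wild-type livers, Gusb fell by 0.84, and Fuca1 and Manba each by 0.72. Without the third Atf6a-/- TM animal the count of hydrolases that fell in Atf6a-/- livers was 11.

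Ctsl, a hydrolase that rose, and Lipa, whose levels differed between the TM groups, are given per animal. Ctsl, the protease cathepsin L, rose to 14.14, 14.09 and 14.17 in Atf6a-/- TM livers, against 12.97, 13.33 and 12.85 in Atf6a-/- vehicle livers, and to 14.01, 13.95 and 13.96 in wild-type TM livers, against 13.09, 12.94 and 13.31 in wild-type vehicle livers. Its increase was 1.08 in Atf6a-/- (adjusted p = 4.43e-05) and 0.86 in wild-type livers (adjusted p = 0.000384). Lipa, lysosomal acid lipase, was at 9.67, 8.95 and 8.96 in Atf6a-/- TM livers, against 10.43, 10.45 and 10.41 in Atf6a-/- vehicle livers, and at 10.36, 10.73 and 10.29 in wild-type TM livers, against 10.71, 10.49 and 10.89 in wild-type vehicle livers. Lipa fell by 1.24 in Atf6a-/- livers (adjusted p = 0.000301), with −0.23 in wild-type livers (adjusted p = 0.467), and was lower in Atf6a-/- TM than in wild-type TM livers by −1.27 (adjusted p = 0.00194), although the difference of the responses, −1, was not called (adjusted p = 0.103). Lipa was chosen for description after its values were seen.

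Markers of other liver cell types were read beside these genes. All 8 Kupffer cell and macrophage markers were negative with TM in both genotypes, with medians of −0.55 in Atf6a-/- and −0.32 in wild-type livers. Over all genes the medians were −0.104 in Atf6a-/- and −0.06 in wild-type livers. In Atf6a-/- livers 3 of 8 fell (37.5%, against 8.21% of all genes), Marco by 1.01, Csf1r by 0.8 and Adgre1 by 0.79. In wild-type livers none of these 8 markers fell, against 6.9% of all genes. Their mean level ranged from 8.82 to 9.33 in Atf6a-/- TM, 9.33 to 10 in Atf6a-/- vehicle, 9.3 to 9.55 in wild-type TM and 9.22 to 10.1 in wild-type vehicle livers, and none of the 8 was below the array median throughout. The mean level of the hydrolases ranged from 9.13 to 9.42 in Atf6a-/- TM, 9.75 to 9.92 in Atf6a-/- vehicle, 9.41 to 9.54 in wild-type TM and 9.72 to 9.98 in wild-type vehicle livers. All 8 neutrophil and lymphocyte markers were also negative in both genotypes (medians −0.56 in Atf6a-/- and −0.39 in wild-type livers). Of these, 2 were called in Atf6a-/- livers (25%, against 8.21% of all genes). In each genotype 2 of 6 stellate cell markers fell (33.3%, against 8.21% of all genes in Atf6a-/- and 6.9% in wild-type livers). All 5 cholangiocyte markers were negative (medians −0.31 in Atf6a-/- and −0.11 in wild-type livers), with 1 called in Atf6a-/- livers (20%, against 8.21% of all genes). Of the 6 endothelial markers, 4 were negative in Atf6a-/- and 5 in wild-type livers. Lyve1 rose by 1.52 in Atf6a-/- livers (16.7% of these markers higher, against 13.1% of all genes) and was at 0.45 in wild-type livers. Kdr was at −0.52 in Atf6a-/- livers and fell by 0.65 in wild-type livers (16.7% lower, against 6.9% of all genes). The part of these cells in the lower levels of the hydrolases, Lamp1 and Lamp2 was not tested.

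Of 15 other lysosomal membrane proteins, 2 rose and none fell in each genotype (13.3% higher, against 13.1% of all genes in Atf6a-/- and 8.92% in wild-type livers). These were Npc1, the cholesterol exporter, by 2.4 in Atf6a-/- and 1.95 in wild-type livers, and Lamtor3, a subunit of the Ragulator complex that anchors mTORC1, by 0.79 in Atf6a-/- livers and 0.6 in wild-type livers. Of 15 subunits of the vacuolar ATPase, the proton pump that acidifies the lysosome, 1 rose and 1 fell in Atf6a-/- livers (6.67% each, against 13.1% and 8.21% of all genes), and 2 rose and 1 fell in wild-type livers (13.3% and 6.67%, against 8.92% and 6.9%). Atp6v1a fell by 1.16 in Atf6a-/- livers and by 0.97 in wild-type livers. Atp6v1b2 rose by 0.64 in Atf6a-/- livers and was at 0.3 in wild-type livers, whereas Atp6v0d1 and Atp6v0e rose in wild-type livers, by 0.67 and 0.68, and were at 0.32 and 0.26 in Atf6a-/- livers.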

How the data were processed

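Liver RNA of 12 mice (4 groups of 3 animals, 1 Affymetrix array each) was analysed from the table the authors deposited, which holds log2 expression values made with RMA and affy (background subtraction, quantile normalization over arrays and summarisation per probeset); limma is also named per the labels, with no versions stated. RMA shrinks low signals together, so changes of dim probesets are understated. All 45037 probesets other than 64 controls were fitted with limma 3.58.1 in R 4.3.3 (1 mean per group, 5 contrasts, empirical Bayes with 8 residual and 4.25 prior degrees of freedom), with Benjamini-Hochberg adjustment over all of them, and the fit was tested on simulated data. Called means adjusted p under 0.05 and over 1.5-fold. The platform annotation gave 1 gene to 34945 probesets, several to 932 and none to 9160, and a gene was its brightest probeset naming 1 gene. The number of arrays limits the precision.

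Per-animal values are given for members called in any contrast or among the 3 lowest p of a contrast. Of each other autophagy or lysosome list, up to 4 called genes, those with the largest limma statistic, are named. Of the stress genes and cell type markers, only some of those called are named. Values per animal of Atf6, Tfeb, Lamp1, Lamp2, Mitf, Ctsl, Lipa and Atg16l2 are given beyond these rules. The members, lists and rules were chosen with earlier results of these data known. The replicates are separate mice per the labels. Same-numbered animals were not paired by the labels. Alternatives covered other normalizations, centring on Btf3 and Ppia (Ppia through a probeset shared with a pseudogene), thresholds, choice of probeset, a sex covariate, array weights, a replicate block, the methods' t-test and leaving out each array. No batch or scan date was used here.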

Additional observations from a re-analysis of the deposited data

Results flagged for a closer look

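Among the genes described, 4 outside the member list responded to TM differently in the 2 genotypes by limma's interaction test (Atf6a-/- response minus wild-type response). Tmem41b, the ER scramblase, responded less in Atf6a-/- livers, by −1.68 (adjusted p = 0.00725). Sesn2, the mTORC1 inhibitor, responded more in Atf6a-/- livers, by 0.96 (adjusted p = 0.0325). Atf3, a stress-induced transcription factor, responded more, by 1.55 (adjusted p = 0.00632), and Pdia4, the ER oxidoreductase, less, by −2.91 (adjusted p = 5.79e-05). No member of the autophagy and lysosome list met the same criterion.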

How the results depend on the processing

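Counts of members called with TM in Atf6a-/- livers (7 higher, 2 lower) moved to 4 lower with centring on Btf3 and Ppia, 11 higher and 5 lower with no fold threshold, 2 higher and 0 lower at 2-fold, 1 lower with the mean of all probesets, and 0 lower by the methods' t-test after adjustment. In wild-type livers (4 higher, 1 lower) they moved to 2 lower with quantile normalization, 8 higher and 4 lower with no fold threshold, 1 higher at 2-fold, and 0 lower by the adjusted t-test; without the 4 arrays with Y-linked signal, a setting added after seeing the data, 2 were lower. Between the TM groups (0 higher, 1 lower), 1 was higher with a Y-linked minus Xist covariate or array weights, 2 at unadjusted p in limma and in the t-test, and 0 were lower at 2-fold, by the adjusted t-test, or with probesets that are not of types s, x or a. At unadjusted p, 1 member was lower between the vehicle groups by limma and the t-test, and 2 were higher in the interaction. Leaving out 1 array gave 7 to 8 higher and 0 to 4 lower in Atf6a-/-, 3 to 5 higher and 1 to 3 lower in wild-type, and 0 to 1 in each direction between TM groups. No direction of a called value was reversed. The shares of all genes under these other settings are not given, so the counts show only how the calls moved with the setting.

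The replicate block changed no count (7 higher and 2 lower in Atf6a-/-, 4 and 1 in wild-type livers); of 18 same-numbered pairs, 6 had deviations correlated over 0.1 (range −0.476 to 0.394), so numbers were not taken as pairs. Centring moved the median of all genes to −0.17 in Atf6a-/- and −0.096 in wild-type livers. Hydrolases that fell numbered 11 to 19 in Atf6a-/- and 5 to 9 in wild-type livers with 1 array left out, and 6 to 22 and 1 to 14 over all other settings. With 3 animals against 3, an exact permutation test cannot go below 0.1.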

Other observations

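Some neighbours of the members on the chromosome were examined after their values were seen. Harbi1, which lies between Atg13 and Ambra1 on chromosome 2, rose with TM by 0.87 in Atf6a-/- livers (limma adjusted p = 0.000265) and 0.6 in wild-type livers (adjusted p = 0.00511), so that Atg13, Harbi1 and Ambra1 were all called higher in Atf6a-/- livers. RefSeq also lists Harbi1 as a synonym of Atg13, and whether the Harbi1 and Atg13 probesets read separate transcripts was not tested. Arsg, beside Wipi1 and not on the list of hydrolases counted above, rose by 1.23 in Atf6a-/- livers (adjusted p = 2.2e-06). It was at 0.51 in wild-type livers (adjusted p = 0.00221). Fbxo34, beside Atg14, rose by 1.12 in Atf6a-/- livers (adjusted p = 7e-04) and was at −0.03 in wild-type livers. Tmem106a, beside Nbr1, was called lower in both genotypes, at −0.64 in Atf6a-/- and −0.69 in wild-type livers. Whether any of these share control with the member was not tested.

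Atg16l2, a paralogue of Atg16l1, rose by 2.57 in Atf6a-/- livers (adjusted p = 0.00659), but its level was spread over 8.9, 9.98 and 7.89 in Atf6a-/- TM livers, against 5.98, 6.04 and 7.04 in Atf6a-/- vehicle livers. It was at 8.91, 6.37 and 7.08 in wild-type TM livers, against 6.38, 6.85 and 6.95 in wild-type vehicle livers, where the groups overlapped and the difference of 0.73 was not called (adjusted p = 0.49).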
